A study of Mus musculus with 6 samples.

Results

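The miR-23, miR-27 and miR-24 clusters are described here in vesicles released by mouse hepatocytes. The members are the 5 rows of the miRNA table named mmu-miR-23a-3p, mmu-miR-23b-3p, mmu-miR-27a-3p, mmu-miR-27b-3p and mmu-miR-24-3p (mmu, for mouse, is left out from here on), out of 1976 rows. All 5 had reads and passed the filter on low values, as did 181 rows in all. The vesicles, called exosomes in the labels, came from primary hepatocytes of wild-type C57BL/6J mice. Control cells received palmitic acid at 0 µM and treated cells received 600 µM, with 3 small RNA libraries per group. Palmitic acid, a saturated fatty acid, is given to cultured hepatocytes to make them store lipid, and the libraries at 600 µM are called treated here. No label tells whether a group's libraries stem from different mice or dishes; the p-values below therefore reflect how much the libraries varied, part or all of which may be technical. In bulk vesicle RNA, fewer vesicles of a kind and less of a miRNA per vesicle cannot be told apart.

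Each cluster is transcribed as a common precursor from which a miR-23, a miR-27 and a miR-24 hairpin are cut. Each hairpin gives a mature miRNA that recognises target transcripts mainly through its seed, bases 2 to 8. miR-27 is known in liver as a repressor of lipid metabolism genes such as Pparg, and miR-24 as a repressor of Insig1, a brake on sterol and fatty acid synthesis. miR-23 is linked to TGF-beta signalling in liver cells, and miR-23 and miR-27 to vessel growth in endothelial cells.

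The mature sequences are shown because miR-27a-3p and miR-27b-3p are nearly identical, which limits how far their reads can be separated. They are from RefSeq (GRCm38.p6), 5′ to 3′, with the seed in capitals. Of the 5 members 4 were matched by name. miR-23b-3p was not, so its sequence was not compared with that of miR-23a-3p. How far reads of the miR-23 pair can be separated was therefore not checked, and the limit may hold for them too.
miR-23a-3p: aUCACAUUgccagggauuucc
miR-27a-3p: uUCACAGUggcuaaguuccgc
miR-27b-3p: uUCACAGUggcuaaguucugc
miR-24-3p: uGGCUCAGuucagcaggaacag
From miR-27a-3p to miR-27b-3p there is 1 substitution, C19U, counted from 1 at the 5′ end and outside the seed. The pair shares its seed, and miR-24-3p has a seed of its own. Of the 4 other rows that share the miR-24 seed, miR-5124b, miR-6369 and miR-6410 had no read and miR-6413 had 1.

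The a cluster lies on GRCm38 chromosome 8, plus strand, 84208518 to 84208921, and holds Mir23a, Mir27a and Mir24-2 in 404 bases. In GENCODE M21, Mir23a and Mir27a overlap no other annotated gene, and Mir24-2 overlaps an exon of at least 1 transcript of the long non-coding RNA Gm26532. The b cluster lies on chromosome 13, plus strand, 63300484 to 63301275, and holds Mir23b, Mir27b and Mir24-1 in 792 bases. It lies inside the protein-coding gene 2010111I01Rik on the same strand and inside an intron of Fancc on the other. Mir23b is intronic in 2010111I01Rik, whereas Mir27b and Mir24-1 each overlap an exon of at least 1 of its transcripts. miR-24-3p is made from both clusters with an identical sequence, so its row cannot be split between them. How reads that match both loci were counted was not stated.

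**Figure D1:**
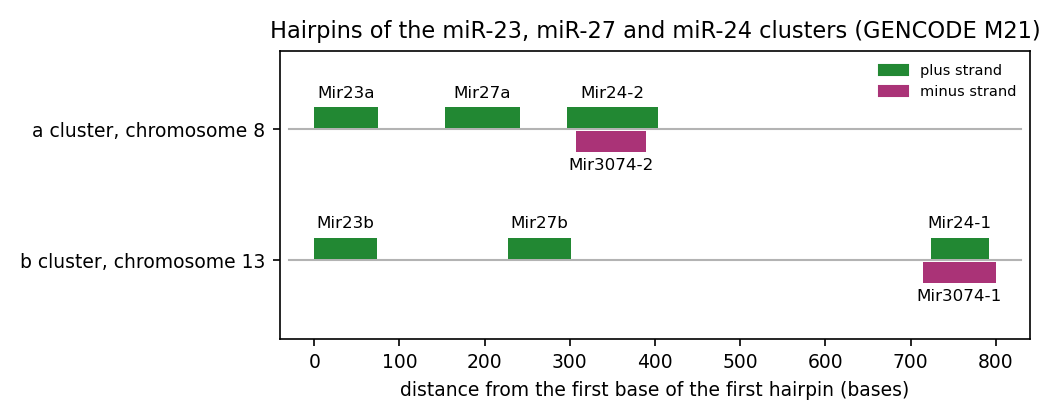
Map of the a and b clusters, with the distance in bases from the start of the first plus-strand hairpin on the x axis. The a cluster spans 404 bases and the b cluster 792, and each miR-24 hairpin faces a miR-3074 hairpin on the opposite strand.

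Reads recovered from the deposited values totalled 95246 to 657628 per control library and 613451 to 799126 per palmitic acid library. miR-122-5p, the dominant hepatocyte miRNA, and miR-122b-3p, from an overlapping hairpin, together took 69.2% to 87.7% of control reads and 11.7% to 15.3% of palmitic acid reads. All 5 hepatocyte markers looked for had reads in both groups, and their sum was 637444 to 825369 RPM (reads scaled to a library total of 1000000 recovered reads) in controls and 308016 to 464423 RPM in treated libraries. As deposited, miR-122-5p among these 5 was lower (log2 difference -3.56), whereas miR-192-5p (1.94) and miR-101b-3p (5.44) were higher. miR-148a-3p (0.83) and miR-194-5p (-0.23) did not pass (limma, Benjamini-Hochberg adjusted p below 0.05). Summed marker levels of other cells ran from 1.52 to 252 RPM in controls and from 52.2 to 207 RPM in treated libraries for 5 immune and Kupffer cell miRNAs. They were 157 to 2163 against 491 to 638 RPM for 5 stellate cell and fibroblast miRNAs, and 865 to 3420 against 3743 to 4957 RPM for 2 endothelial miRNAs. The 3 erythroid miRNAs held 38.0 to 5701 against 24.5 to 160 RPM, the 3 striated muscle miRNAs 95.8 to 2362 against 26.3 to 50.1, and the 5 biliary and epithelial miRNAs 1.52 to 206 against 11.4 to 33.8. Among these markers miR-144-3p (erythroid) and miR-133a-3p (muscle) had no read in any library, and miR-223-3p (immune), miR-145a-5p and miR-214-3p (stellate) and miR-141-3p (epithelial) had none in controls. The miR-122 share and the hepatocyte, endothelial and muscle sums did not overlap between groups. In RPM of reads other than miR-122-5p and miR-122b-3p, the endothelial sum turned, from 7044 to 16404 in controls against 4419 to 5615 in treated libraries, still without overlap. On that scale the stellate (1275 to 7018 against 556 to 753), erythroid (309 to 18499 against 28.1 to 181) and muscle sums (780 to 7665 against 29.7 to 59.1) were lower in every treated library. The hepatocyte sum, without the miR-122 pair, overlapped (227547 to 674668 against 241846 to 409825), as did the immune and the biliary and epithelial sums. Their part in the results below was not tested.

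Of the 5 members, miR-23b-3p and miR-27b-3p of the b cluster rose with palmitic acid and none fell (limma, Benjamini-Hochberg adjusted p below 0.05). That is 2 of 5, against 42.0% of the 181 tested miRNAs that rose and 14.4% that fell. The groups did not overlap, with palmitic acid higher, in 4 of 5 members, against 48.6% of tested miRNAs. On other scales the split of 76 higher and 26 lower moved to 65 and 40 (libraries centred on their median), 59 and 46 (reads without miR-122), 48 and 59 (relative to the median difference) and 92 and 10 (RPM of all reads). The members' median log2 difference was that of miR-27b-3p, 1.26, below the median of all tested miRNAs, 1.94. Differences are on the deposited scale, log2(adjusted count + 1), where the adjusted count is a read number brought to a common, fitted library size. The fitted factors did not follow the read totals. Control replicate 2 had 657628 reads and a factor of 0.369, and palmitic acid replicate 3 had 613451 reads and a factor of 1.69.

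miR-23b-3p stood furthest apart. On the deposited log2 scale control replicates 1, 2 and 3 stood at 4.88, 3.61 and 4.03, and treated replicates 1, 2 and 3 at 8.34, 7.62 and 8.14. Every palmitic acid value lay above every control value. They rested on 9, 4 and 7 control reads and on 661, 560 and 472 palmitic acid reads, so the control level is known only coarsely. The log2 difference was 3.86 (SE 0.68, 95% interval 2.28 to 5.43, limma adjusted p = 0.00182, n = 3 per group), a 14.5-fold difference on that scale, and it ranked 52 of 181 from the highest. In RPM of all recovered reads the level was 42.8 ± 46.1 in controls and 777 ± 46.5 in treated libraries (SD, n = 3).

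miR-23a-3p, which shares the miR-23 name and differs from miR-23b-3p in its locus, did not pass the test. Its controls stood at 6.56, 5.57 and 0.27 on the deposited log2 scale and its treated libraries at 6.46, 6.70 and 6.78. Control replicate 1 lay above palmitic acid replicate 1, and control replicate 3 lay far below all others. The reads were 30, 17 and 0 in controls and 178, 295 and 184 in treated libraries. A count of 0 in control replicate 3 allows up to 3 of its 252329 reads, or 11.9 RPM, against 25.9 and 315 RPM in control replicates 2 and 1. The log2 difference was 2.52 (SE 1.56, 95% interval -1.09 to 6.12, limma adjusted p = 0.192, n = 3 per group). Without control replicate 3 it was 0.58 (limma adjusted p = 0.416), so the size of the difference rested on that library.

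The same control replicate 3 held 93 reads of miR-27a-3p and 73 of miR-24-3p, the neighbours of miR-23a-3p. A pattern of 0 reads in 1 control and at least 17 in each of the other controls was found in 3 of the 181 tested miRNAs. Besides miR-23a-3p these were miR-181a-5p, also at 0 in control replicate 3 with 99 and 27 reads in the others, and miR-28a-3p, at 0 in control replicate 1. This search was made after the values of miR-23a-3p had been seen.

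miR-27b-3p, the most abundant member in every library, also rose. The control values were 9.12, 9.44 and 9.32 (deposited log2) and the treated values 10.55, 10.23 and 10.87, with no overlap. The reads were 179, 256 and 296 in controls and 3071, 3439 and 3158 in treated libraries. The log2 difference was 1.26 (SE 0.34, 95% interval 0.46 to 2.05, limma adjusted p = 0.0137, n = 3 per group), or 2.39-fold. That call was lost without palmitic acid replicate 1 (limma adjusted p = 0.0502) or 3 (0.0507), at log2 differences of 1.26 and 1.10.

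miR-27a-3p, which shares its seed with miR-27b-3p, did not pass. Deposited log2 values of 7.01, 7.68 and 7.66 in controls faced 8.23, 8.12 and 8.06 in treated libraries. The groups did not overlap, but the gap between the highest control and the lowest palmitic acid value was smaller than the range of the controls. Reads were 41, 75 and 93 against 614, 795 and 449, and the log2 difference was 0.69 (SE 0.42, 95% interval -0.28 to 1.67, limma adjusted p = 0.185, n = 3 per group).

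miR-24-3p, the member made by both clusters, did not pass either. Controls held deposited log2 values of 7.83, 8.09 and 7.31 and treated libraries 8.52, 8.67 and 8.67, again without overlap. Reads were 73, 100 and 73 against 747, 1165 and 683, and the log2 difference was 0.87 (SE 0.40, 95% interval -0.05 to 1.80, limma adjusted p = 0.0932, n = 3 per group). Its interval reaches past the difference estimated for miR-27b-3p.

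**Figure D2:**
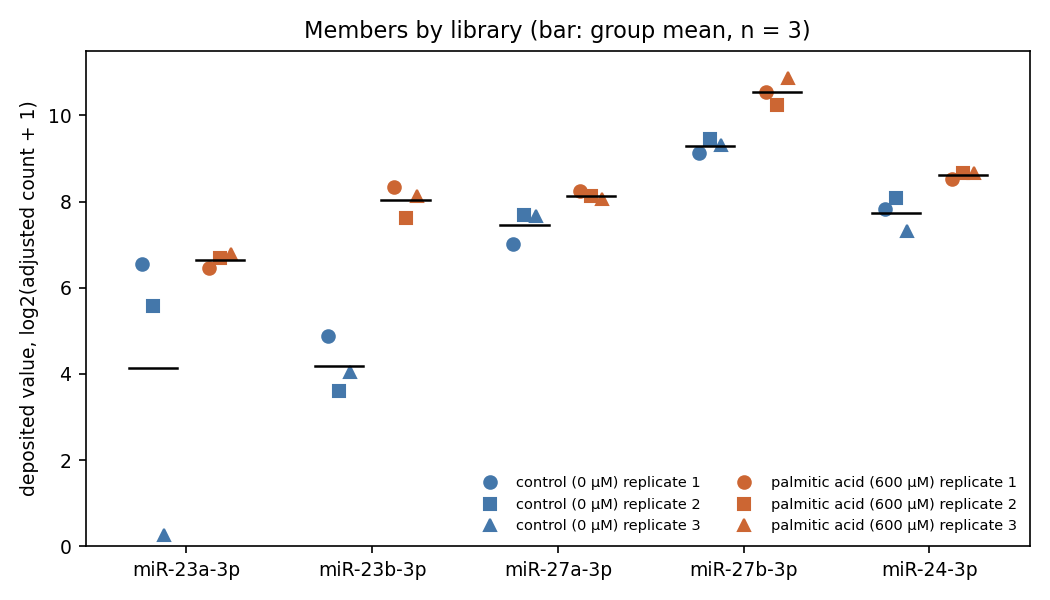
Deposited values of the 5 members on the log2(adjusted count + 1) scale, 1 point per library (shape: replicate), with a bar at each group mean (n = 3). miR-23b-3p runs from 3.61 to 4.88 in controls and from 7.62 to 8.34 with palmitic acid, and miR-23a-3p has 1 control library at 0.27.

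The order of the members differed between the groups. Read numbers were compared between members without a length correction, since the 4 with a matched sequence are 21 or 22 bases long. The length of miR-23b-3p was not checked, and whether all members are captured equally well was not tested. In every control library miR-27b-3p led, miR-24-3p and miR-27a-3p followed in either order, and miR-23a-3p and miR-23b-3p came last. With palmitic acid miR-27b-3p led and miR-24-3p came second in each library, whereas miR-23b-3p now stood beside miR-27a-3p and above miR-23a-3p. In RPM of all reads, palmitic acid libraries held 4502 ± 653 miR-27b-3p, 1192 ± 305 miR-24-3p, 848 ± 170 miR-27a-3p, 777 ± 46.5 miR-23b-3p and 303 ± 82.3 miR-23a-3p (SD, n = 3). The ranges of miR-24-3p and miR-27a-3p overlapped, as did those of miR-27a-3p and miR-23b-3p. Controls held 1147 ± 745, 403 ± 322, 304 ± 168, 42.8 ± 46.1 and 114 ± 175 RPM in the same order of miRNAs. Neighbouring control ranges in this order overlapped, except that miR-27a-3p (114 to 430 RPM) lay above miR-23b-3p (6.08 to 94.5 RPM).

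The share of the clusters in a library depended on what it was counted against. The 5 members together took 0.349%, 0.0687% and 0.186% of all reads in the controls, and 0.660%, 0.821% and 0.806% in the treated libraries. All palmitic acid libraries were higher (exact two-sided permutation p = 0.1, adjusted p = 0.12 over 6 shares), the smallest p that 3 against 3 allows. Of reads other than miR-122-5p and miR-122b-3p, the members took 1.13%, 0.560% and 0.891% in controls and 0.779%, 0.930% and 0.926% in treated libraries. On that count the groups overlapped (exact permutation p = 0.8, adjusted p = 1).

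miR-23b-3p was the member whose groups stayed apart against reads other than miR-122. It held 307, 49.5 and 133 RPM of those reads in controls and 977, 833 and 883 RPM in treated libraries (exact permutation p = 0.1, adjusted p = 0.6 over 6 shares). On that scale its log2 difference was 2.71 (limma adjusted p = 0.0193), where 32.6% of tested miRNAs rose and 25.4% fell. The others stood at 1.41 for miR-23a-3p, 0.11 for miR-27b-3p, -0.28 for miR-24-3p and -0.46 for miR-27a-3p, with limma adjusted p from 0.437 to 0.837. miR-27b-3p, called as deposited, was thus not called there, and the differences of miR-24-3p and miR-27a-3p had the opposite sign.

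Differences were also taken relative to the median difference of all tested miRNAs, 1.94, subtracted as a fixed value. On that scale miR-23b-3p was higher by 1.92 (limma adjusted p = 0.0402), where 26.5% of tested miRNAs were higher and 32.6% lower. miR-27a-3p was lower at -1.25 (limma adjusted p = 0.0338), as was miR-24-3p at -1.07 (limma adjusted p = 0.0493). miR-27b-3p stood at -0.68 (limma adjusted p = 0.125) and miR-23a-3p at 0.58 (limma adjusted p = 0.767). These p-values leave out the error of the median. With each library centred on its median tested miRNA, miR-27a-3p stood at -0.10 (limma adjusted p = 0.879) and miR-24-3p at 0.08 (0.876). Neither was called there. The direction of miR-27a-3p, miR-27b-3p and miR-24-3p therefore turned with the scale. That of miR-23b-3p did not on the scales tried. For miR-23a-3p the fitted log2 difference kept its sign, but mean RPM of reads other than miR-122 was 411 ± 540 in controls and 349 ± 87.9 in treated libraries (SD, n = 3), the opposite direction and within the spread (exact permutation p = 1, adjusted p = 1 over 6 shares).

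**Figure D3:**
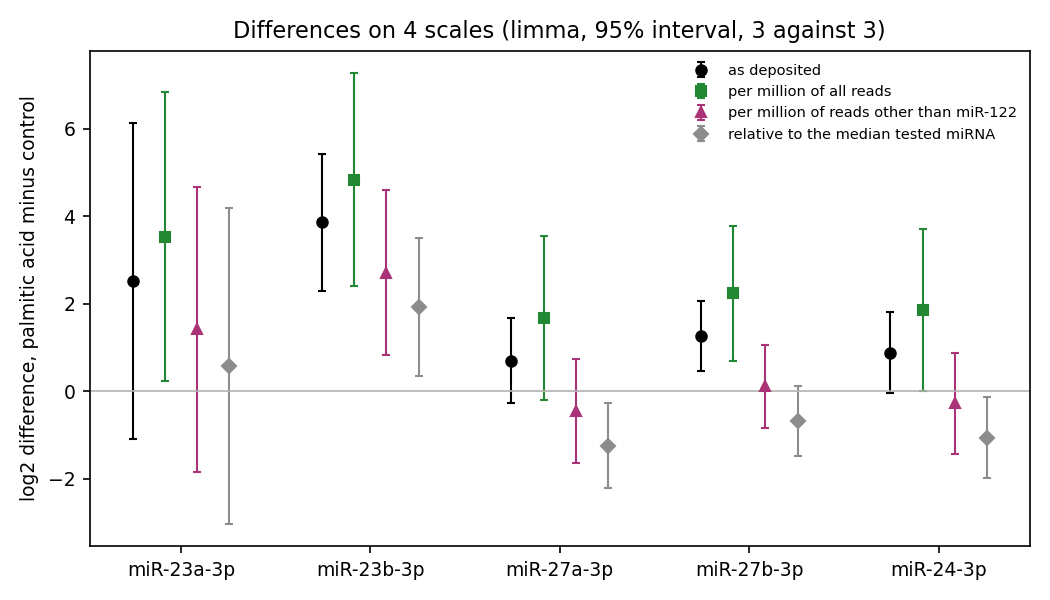
Log2 difference of each member, palmitic acid minus control, on 4 scales (limma, 3 libraries against 3, bars: 95% interval). On the scale relative to the median, the median difference was subtracted as a fixed value, and the intervals leave out its error. miR-23b-3p lies between 1.92 and 4.83 with every interval above 0, whereas miR-27a-3p, miR-27b-3p and miR-24-3p lie on both sides of 0 depending on the scale.

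Whether the a and b paralogs moved by the same amount was asked with differences taken within a library. These cancel a factor common to all miRNAs of a library, up to the added count of 1. The adjustment to a common library size also depends on each miRNA's level, so it cancels only in part. The difference of miR-23a-3p minus miR-23b-3p on the deposited log2 scale was 1.68, 1.96 and -3.76 for control replicates 1, 2 and 3, and for the treated replicates -1.88, -0.92 and -1.35. In 2 of 3 controls miR-23a-3p was the higher paralog, and in all 3 palmitic acid libraries miR-23b-3p was. The groups overlapped because of control replicate 3 (exact two-sided permutation p = 0.4, adjusted p = 0.64 over 8 differences). The group difference was -1.34, and it was -3.20 without control replicate 3, where the smallest possible p is 0.2.

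In reads, miR-23a-3p made up 30 of 39 miR-23 reads in control replicate 1 (76.9%, 95% Clopper-Pearson interval 60.7 to 88.9), 17 of 21 in replicate 2 (81.0%, 58.1 to 94.6) and 0 of 7 in replicate 3 (0%, up to 41.0). With palmitic acid it made up 178 of 839 (21.2%, 18.5 to 24.1), 295 of 855 (34.5%, 31.3 to 37.8) and 184 of 656 (28.0%, 24.6 to 31.7). The intervals of control replicates 1 and 2 lay above all palmitic acid intervals, and that of control replicate 3 contained all 3. The intervals cover counting error only, since PCR copies are not independent molecules.

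miR-27a-3p made up 18.6%, 22.7% and 23.9% of 220, 331 and 389 miR-27 reads in controls and 16.7%, 18.8% and 12.4% of 3685, 4234 and 3607 in treated libraries. miR-27b-3p was the larger part in all 6 libraries, and the groups overlapped (exact permutation p = 0.2, adjusted p = 0.3 over 3 shares). The deposited log2 difference of miR-27a-3p minus miR-27b-3p was -1.85 ± 0.24 in controls and -2.41 ± 0.36 in treated libraries (SD, n = 3), and the groups overlapped (exact permutation p = 0.2, adjusted p = 0.4 over 8 differences).

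With miR-23 and miR-27 reads added together, the a cluster held 27.4%, 26.1% and 23.5% in controls and 17.5%, 21.4% and 14.8% in treated libraries. Every control was higher (exact permutation p = 0.1, adjusted p = 0.3 over 3 shares, the sum having been chosen after the paralog values were seen). How reads that match both paralogs were counted was not stated, so single paralog values are uncertain. With the adjusted counts of each pair summed before the test, both sums passed. miR-23 rose by 2.88 (SE 0.77, limma adjusted p = 0.0119) and miR-27 by 1.15 (SE 0.34, limma adjusted p = 0.0197). The sums were fitted on the deposited scale only, where the median over the 181 tested miRNAs was 1.94. Against reads other than miR-122, miR-27b-3p stood at 0.11 and miR-27a-3p at -0.46, so the miR-27 call may depend on the scale.

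**Figure D4:**
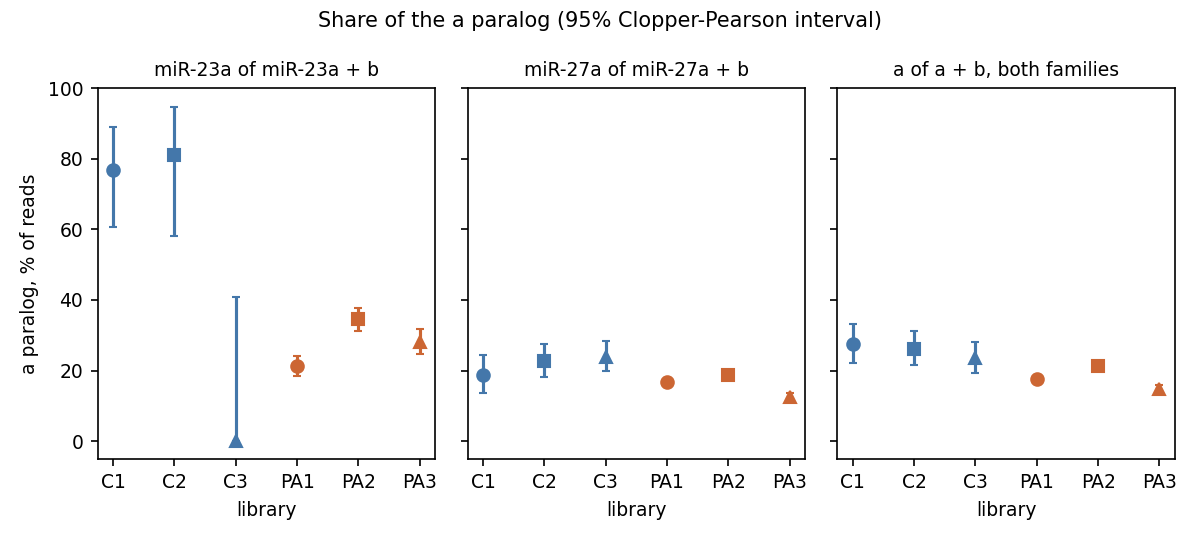
Share of the a paralog in a plus b reads per library (y axis, percent) for miR-23, for miR-27 and for both together, with 95% Clopper-Pearson intervals; C1 to C3 are controls and PA1 to PA3 palmitic acid. miR-23a stands at 76.9% and 81.0% in 2 controls, at 0 of 7 reads in control replicate 3 and at 21.2% to 34.5% with palmitic acid, and miR-27a lies between 12.4% and 23.9%.

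Within the b cluster, miR-23b-3p stood closer to its neighbours in all 3 treated libraries than in any control. The difference of miR-23b-3p minus miR-27b-3p was -4.24, -5.83 and -5.29 in controls and -2.21, -2.61 and -2.74 in treated libraries. The groups did not overlap (group difference 2.60, exact permutation p = 0.1, adjusted p = 0.4 over 8 differences). miR-24-3p minus miR-23b-3p went from 3.57 ± 0.80 to 0.59 ± 0.44 (SD, n = 3), also without overlap (exact permutation p = 0.1, adjusted p = 0.4). These were the only 2 of the 8 differences whose groups did not overlap, and no adjusted p could reach 0.05. Both hold miR-23b-3p and rest on the same 9, 4 and 7 control reads, so they are not independent. How often other pairs of miRNAs do not overlap was not examined.

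The other differences overlapped between groups. miR-24-3p minus miR-27a-3p was 0.30 ± 0.59 in controls and 0.48 ± 0.17 in treated libraries (SD, n = 3 each; exact permutation p = 0.8, adjusted p = 0.8). miR-24-3p minus miR-27b-3p was -1.55 ± 0.40 and -1.93 ± 0.34 in the same order (exact permutation p = 0.2, adjusted p = 0.4). miR-23a-3p minus miR-27a-3p differed by 1.82 between groups and miR-24-3p minus miR-23a-3p by -1.64 (exact permutation p = 0.7 for each, adjusted p = 0.8). Without control replicate 3 these were -0.21 and 0.073, and miR-24-3p minus miR-27a-3p went from 0.18 to -0.14.

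To find the most similar miRNAs, each profile over the 6 libraries was centred on its mean, and likeness was the root mean square difference to each other tested miRNA. miR-24-3p was nearest to miR-27b-3p (0.36) and miR-27a-3p (0.37). miR-27b-3p was nearest to miR-215-5p (0.29) and miR-24-3p, and miR-27a-3p to miR-92a-3p (0.26) and miR-126a-3p (0.35). For miR-23b-3p the nearest were miR-148b-5p (0.47) and miR-331-3p (0.48). For miR-23a-3p they were miR-29b-3p (0.56) and miR-194-2-3p (0.78), while miR-23b-3p came at rank 45. These are descriptions over 6 libraries, in which the difference between groups weighs heavily.

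The other arms of the hairpins were scarce. miR-23b-5p had no read in any library, and miR-23a-5p had 1, in control replicate 2. miR-27a-5p had no control read and 4, 4 and 6 reads with palmitic acid, and miR-27b-5p had none and 2, 3 and 4. miR-27a-5p thus held 5.01, 5.25 and 9.78 RPM of all reads in treated replicates 1, 2 and 3. A count of 0 allows up to 31.5, 4.56 and 11.9 RPM in control replicates 1, 2 and 3, so those levels lay above the limit of control replicate 2 alone, and in the others a like level was not detectable at this depth.

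The 5p arms of miR-24 are shown because their ends tell the clusters apart, unlike miR-24-3p. They share their first 16 bases, and the capitals mark the rest.
miR-24-1-5p: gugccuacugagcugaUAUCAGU
miR-24-2-5p: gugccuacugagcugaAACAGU
miR-24-2-5p, from the a cluster, had 0, 7 and 21 reads in controls and 50, 39 and 21 in treated libraries. miR-24-1-5p, from the b cluster, had 0, 5 and 0 reads in controls and 6, 12 and 1 in treated libraries. The a cluster arm made up 89.3%, 76.5% and 95.5% of the 56, 51 and 22 reads of the pair with palmitic acid. In control replicate 2 it made up 7 of 12 reads (95% Clopper-Pearson interval 27.7% to 84.8%) and in control replicate 3 it made up 21 of 21 (at least 83.9%). Among the 5p arms of miR-24, the a cluster was thus the larger part in all 5 libraries with reads, whereas among miR-27 reads the b cluster was. miR-24-2-5p, the tested one of the pair, differed by 0.67 (SE 1.25, limma adjusted p = 0.667).

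On the opposite strand of the miR-24 hairpins lie Mir3074-2 (chromosome 8, 84208825 to 84208907) and Mir3074-1 (chromosome 13, 63301199 to 63301283). Their shared product is shown because the reverse complement of miR-3074-5p overlaps miR-24-3p over 20 bases, with the seed in capitals.
miR-3074-5p: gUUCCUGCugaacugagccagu
Strand use in the counting was not stated, so reads of facing miRNAs may not be separable. miR-3074-5p had 3, 2 and 8 reads in controls and 105, 133 and 56 in treated libraries. The deposited log2 difference was 1.99 (SE 0.81, limma adjusted p = 0.0664, n = 3 per group), with no overlap and close to the median of tested miRNAs. It made up 3.95%, 1.96% and 9.88% of miR-3074-5p plus miR-24-3p reads in controls and 12.3%, 10.2% and 7.58% in treated libraries, which overlapped (exact permutation p = 0.2).

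miR-3074-2-3p, the product that faces miR-24-2-5p, had its lowest control count in replicate 1 and its highest in replicate 3, as miR-24-2-5p did. It had 0, 3 and 12 reads in controls and 20, 22 and 6 in treated libraries, beside 0, 7 and 21 and 50, 39 and 21 for miR-24-2-5p. A count of 0 in control replicate 1 allows up to 31.5 RPM of all reads. Control replicate 2 held 4.56 RPM of miR-3074-2-3p and 10.6 RPM of miR-24-2-5p, so replicate 1 cannot be placed below it in RPM. miR-3074-1-3p had no control read and 5, 5 and 1 reads with palmitic acid.

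**Figure D5:**
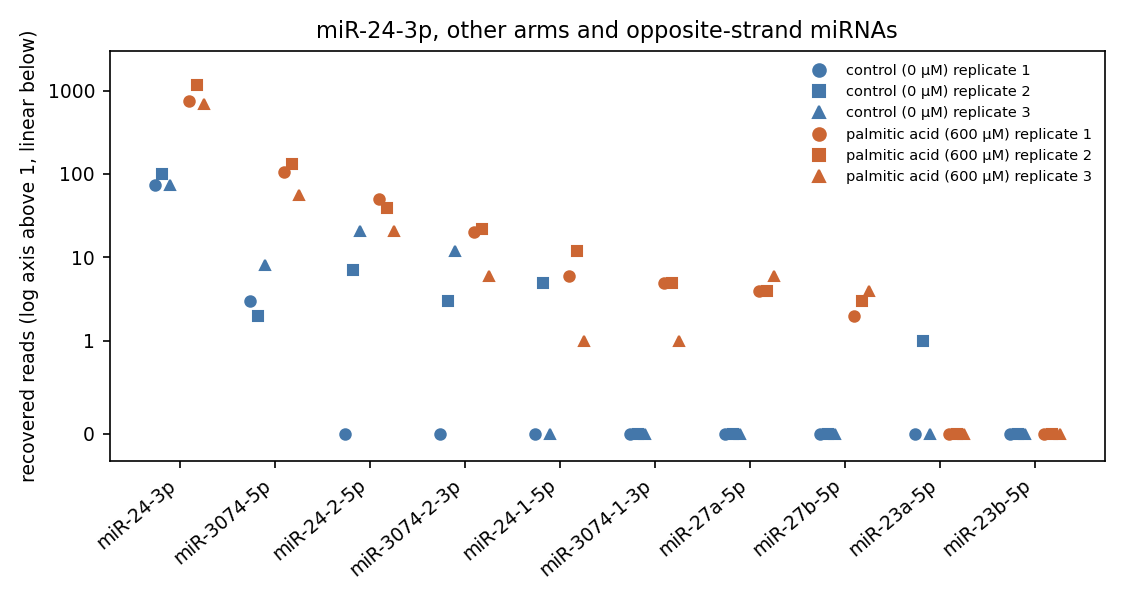
Recovered reads per library of miR-24-3p, of the other arms of the hairpins and of the miR-3074 miRNAs on the opposite strand (y axis logarithmic above 1 read and linear below; shape: replicate). miR-24-3p reached 683 to 1165 reads with palmitic acid, miR-3074-5p 56 to 133, and the 5p arms of miR-23 and miR-27 at most 6.

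As wider context, 23 other miRNAs with a reported role in liver lipid or cholesterol handling were examined, chosen with earlier results of these data known. Of the 18 tested ones 11 rose, beside 42.0% of all tested miRNAs, 2 fell, beside 14.4%, and the other 5 did not pass. Their median log2 difference of 3.501 (1.94 over all tested miRNAs) is a description only and supports nothing here. Among the 11, control reads numbered 0 for miR-34a-5p and for miR-96-5p, 1 for miR-29c-3p and 7 for miR-185-5p, and these 4, named after their values were seen, passed the filter through the treated libraries alone. The most abundant that passed were miR-122-5p (-3.56, limma adjusted p = 0.0141), miR-21a-5p, a miRNA linked to liver injury and growth (3.89, limma adjusted p = 2.4e-04), and miR-192-5p, abundant in liver and gut epithelium (1.94, limma adjusted p = 0.0259).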

How the data were processed

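Small RNA libraries from hepatocyte vesicles (Trizol RNA, NEBNext Multiplex small RNA kit, per the labels' protocols) were compared, 3 against 3. Bowtie2, bedtools, GRCm38 and mm10 appear in the submitters' processing notes, where neither role nor version is attached; how reads were counted is not given in the sources used here. Values that the authors deposited are on a log2 scale, although the table is named as raw counts. The values fit log2(adjusted count + 1), where fitted library sizes that did not follow read totals were equalised through negative binomial quantiles (fitted dispersion 1.39). No label states this step, and libraries not analysed here may have entered it. Inverting it recovered reads: 99.6% of 4387 values with neighbouring reads at least 0.02 apart came out whole within 0.0015 (log2). Values are rounded, so large read numbers are known to 0.0347% and not to the single read. The fitted library factors were 5.64 times higher with palmitic acid, so 1 read weighs more in controls.

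The deposited log2 values of 181 miRNAs (adjusted count 10 or more in 3 or more libraries) were fitted by group in limma 3.58.1 under R 4.3.3, with the trend option, with Benjamini-Hochberg adjustment at 0.05, two-sided. Shares and within-library differences were compared by exact two-sided permutation tests (scipy 1.17.1). The inversion and the fit were run on simulated data. The inversion was given the fitted factors and dispersion that had made the data, so that run cannot check the form of the adjustment. Replicates of a group differed beyond sampling noise (chi-square per degree of freedom 99.8 to 611). Alternatives covered the filter, the added count, the scale, voom, the trend, the replicate block, GC content, summed paralogs and each library left out. Named besides the members were the other arms, opposite-strand and seed-sharing miRNAs, the 2 nearest profiles per member and up to 3 of the lipid list. Members and lists were chosen with earlier results of these data known. Hairpin positions are from GENCODE M21 (GRCm38).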

Additional observations from a re-analysis of the deposited data

How the results depend on the processing

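miR-23b-3p kept its direction and its call in all 18 alternatives counted for it (log2 difference 1.92 to 4.83, limma adjusted p 9.4e-04 to 0.0402). These include the paralogs summed (2.88), a value of miR-23a-3p and miR-23b-3p together and not of miR-23b-3p alone. Removal of a GC trend gave miR-23b-3p no value, since no mature sequence was matched. miR-23a-3p kept its direction in 19 of 19 (0.58 to 3.73), the paralogs summed included. Only that sum with miR-23b-3p passed (2.88), and miR-23a-3p by itself did not pass in any alternative. miR-27b-3p lost its call without treated replicate 1 or 3 and when libraries were centred on their median (0.47), with upper-quartile scaling (0.71) and without miR-122 reads (0.11), turned to -0.68 relative to the median difference, and ran from 1.10 to 1.42 with 1 library left out. miR-27a-3p turned to -0.10 when centred, -1.25 relative to the median and -0.46 without miR-122 reads, and passed with the GC trend removed (1.14). Its sum with miR-27b-3p, the larger part of the miR-27 reads, passed as well (1.15). miR-24-3p turned to -1.07 relative to the median and -0.28 without miR-122 reads, and passed with the GC trend removed (1.54). The cause was not tested.

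Members that rose numbered 1 in place of 2 when centred, relative to the median, with upper-quartile scaling and without miR-122 reads, and 1 to 2 with 1 library left out. Members that fell numbered 2 in place of 0 relative to the median. Of all tested miRNAs, 76 rose and 26 fell. Relative to the median 48 were higher and 59 lower. With no filter, 88 were higher and 60 lower, but among the 1058 rows with a value above 0. Of the 181 tested, those lower numbered 40 when centred, 46 without miR-122 reads, 10 on RPM of all reads and 9 with voom on recovered reads. Those higher numbered 65 when centred, 59 without miR-122 reads, 92 on RPM of all reads and 94 with voom.

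With 1 library left out, the group difference ran from -0.21 to 3.26 for miR-23a-3p minus miR-27a-3p, from -2.81 to 0.073 for miR-24-3p minus miR-23a-3p and from -0.14 to 0.45 for miR-24-3p minus miR-27a-3p, each turning without control replicate 3. The group difference in RPM turned without miR-122 reads for miR-23a-3p (-62.2), miR-27a-3p (-388) and miR-24-3p (-333). Same-numbered control and palmitic acid libraries deviated together with correlations of 0.209, 0.151 and 0.0383, against -0.183 to 0.0623 for pairings of unlike number. The values of replicates 1 and 2 were the highest of all pairings, whereas control replicate 3 correlated best with palmitic acid replicate 2. The correlations were low, and the numbers were not taken as pairs in the main fit. With the replicate block 83 miRNAs rose and 28 fell, and no member changed its call (miR-23b-3p 3.86, limma adjusted p = 0.00159; miR-27b-3p 1.26, 0.0255). Control reads of miR-23b-3p (4 to 9) and of the minor arms limit their precision.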
